A study of Cynodon dactylon with 6 samples.

Results

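Among 111743 unigenes measured in bermudagrass leaves, 143 formed a group whose abundance climbed at each sampling of a heat treatment, from control to 2 h and again from 2 h to 12 h. The members were chosen by the group means of their own read counts. Counts were divided by median-of-ratios size factors, averaged over the libraries of a group, and 1 was added. A member had a mean of at least 80 normalized reads at 12 h, a 2 h mean of at least 2 times the control mean, and a 12 h mean of at least 2 times the 2 h mean. All 6 libraries entered this choice, so the rise of the members is described here and is not tested. Bermudagrass (Cynodon dactylon) is a warm-season turf and forage grass. Leaves of wild-type (WT) seedlings aged 10 days were compared in 3 groups with 2 libraries each: controls labelled 0 h, seedlings held at 42 °C for 2 h, and seedlings held at 42 °C for 12 h. The labels name no cultivar and do not state whether replicates were separate plants or pools. No unheated library of 2 h or 12 h was analysed here, so hours of heat and hour of sampling cannot be told apart.

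In plants, heat unfolds proteins and makes membranes more fluid, and heat shock transcription factors answer within minutes by switching on chaperones that hold or refold proteins. Many of these early transcripts fall back while the heat lasts. Others keep accumulating over hours, as slower programmes of acclimation, sugar and redox metabolism, membrane remodelling, transport and leaf senescence follow. A transcript whose group means at least double in both intervals is set apart here from those that double only in the first or only in the second. That division rests on the 2-fold limits of the rule. Nothing in the files ties an ID to a gene name, so no member can be assigned to any of these programmes, leaf markers could not be checked, and 2 IDs are printed as handles. In whole leaves, more cells of a type and more transcript per cell cannot be told apart.

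The libraries held 6313500 to 9326725 assigned reads, at which 3 reads correspond to 0.322 to 0.475 CPM (counts scaled to library total). The size factors were 1.01 and 0.696 for the controls, 0.786 and 0.862 for 2 h, and 1.35 and 1.57 for 12 h. A feature of the heated libraries touches several results below. For 21 members replicate 2 exceeded replicate 1 by over 1.5 times at 2 h and again at 12 h. The main summaries that these members enter are given with and without them.

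Most members had low levels before heat, although 13 had at least 10 FPKM in the controls, and at 12 h a few were among the unigenes with the highest FPKM. The median member had a mean of 16.1 normalized reads in the controls, with quartiles of 8.79 and 31.5. At 2 h the median was 47.0, with quartiles of 30.8 and 92.9, and at 12 h it was 195, with quartiles of 118 and 386. Without the 21 members with high replicate 2 the medians were 16.6, 44.6 and 203. The floor of 80 fixes the lower end at 12 h, and 73 members lay below 200. Another 18 members reached 1000 or more. Levels of different unigenes are compared by FPKM, a value the authors deposited that divides reads by unigene length and library total. By mean FPKM, 1 member was among the 1000 highest unigenes of the controls, 5 were among those of 2 h and 20 among those of 12 h, of which 6 were in the top 100.

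**Figure D1:**
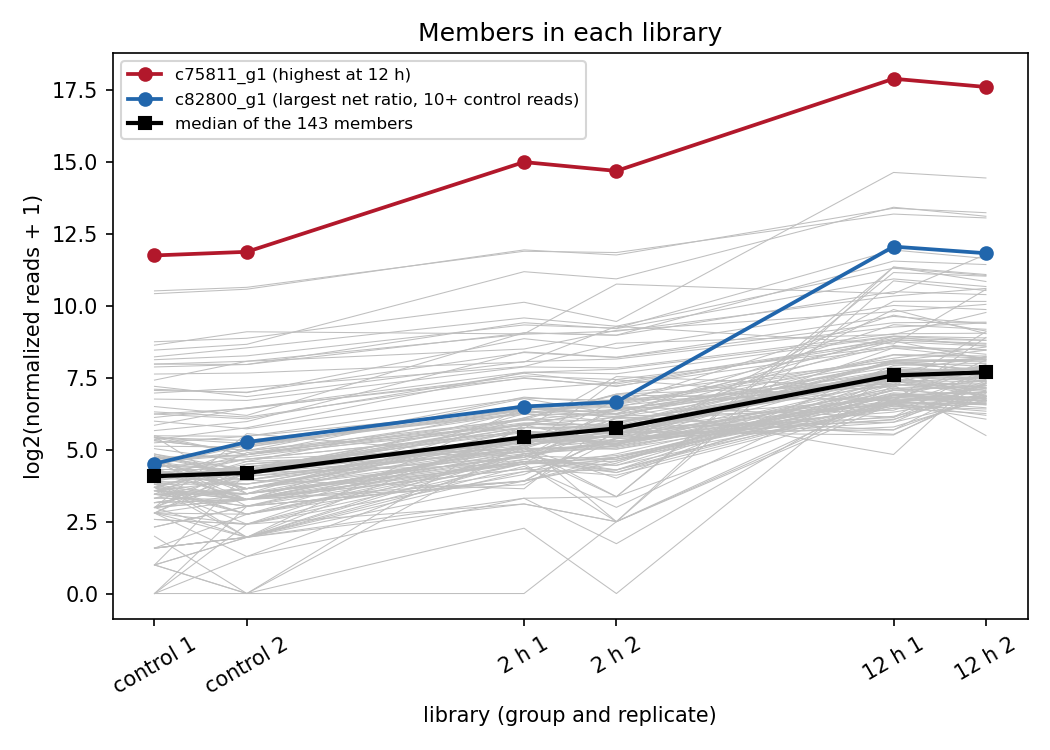
Normalized reads of the 143 members in each of the 6 libraries, as log2(reads + 1) on the vertical axis; a thin grey line joins the values of a member, and the black squares are the median over members. The highest member, c75811_g1, lies above every other member in all 6 libraries, and c82800_g1 makes most of its climb between 2 h and 12 h.

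The highest member was c75811_g1, with an implied length of 774 bases. It had 3424 and 3736 normalized reads in the controls, 32415 and 26187 at 2 h, and 240955 and 197641 at 12 h. The 3 groups did not overlap, and each step was far wider than the gap between replicates. Its first step was 8.18-fold and its second 7.48-fold, so it climbed almost evenly on a log scale, 61.2-fold in all. The edgeR fit to all tested unigenes, which uses another scaling, gave log2 fold changes of 3.03 ± 0.15 (SE) for 2 h over control and 2.88 ± 0.15 for 12 h over 2 h. Per length, its level was 512 ± 30.3 FPKM in the controls (SD, n = 2), 4161 ± 445 at 2 h and 47150 ± 5410 at 12 h. Scaled by library totals, as FPKM is, its net fold in reads was 91.7 in place of 61.2. By mean FPKM, c75811_g1 ranked 174 among all unigenes in the controls and 1 at 12 h.

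The second handle, c82800_g1, was the member with the largest net ratio among the 121 that had at least 10 control reads. Its implied length was 1483 bases. It had 21.8 and 37.35 normalized reads in the controls, 89.1 and 99.8 at 2 h, and 4234 and 3612 at 12 h. The groups did not overlap, and nearly all of the climb came after 2 h. Its first step was 3.12-fold and its second 41.1-fold, 128-fold in all. On the edgeR scale the log2 fold changes were 1.73 ± 0.23 (SE) and 5.34 ± 0.18. Its level per length went from 2.23 ± 0.806 FPKM in the controls (SD, n = 2) to 7.21 ± 0.940 at 2 h and 438 ± 38.4 at 12 h. Scaled by library totals, as FPKM is, its net fold in reads was 191 in place of 128.

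The next members by 12 h count showed a range of courses at high levels. The member ranked 2 had 428 and 465 normalized reads in the controls, 1109 and 697 at 2 h, and 25244 and 22098 at 12 h. Its first step, 2.02-fold, was just inside the limit, and its second was 26.2-fold. The member ranked 4 had 350 and 402, then 2315 and 1947, then 10925 and 8795 normalized reads, with steps of 5.66-fold and 4.62-fold. The members ranked 3 and 5 were already abundant before heat and rose moderately. Rank 3 had 1364 and 1518 normalized reads in the controls, 3913 and 3462 at 2 h, and 10666 and 9581 at 12 h. Rank 5 had 1458 and 1589, then 3787 and 3671, then 9273 and 8447. In ranks 2 to 5 the libraries of the 3 groups did not overlap. Per length they reached 1595, 858, 1086 and 701 mean FPKM at 12 h for ranks 2, 3, 4 and 5, far below the 47150 of c75811_g1.

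Ranks 7, 8 and 11 were also abundant before heat or became so. Rank 7 had 277 and 304.5 normalized reads in the controls, 642 and 594 at 2 h, and 3899 and 3183 at 12 h. Rank 8 had 89.1 and 71.8, then 532 and 501, then 2987 and 2749. Rank 11 had 297 and 369, then 760 and 622, then 2517 and 2114. None of these 3 members had overlapping groups. Rank 8 climbed in steps of similar size, 6.35-fold and 5.54-fold, while rank 7 gained 2.12-fold and then 5.72-fold. The longest unigene of the first 20, rank 16 with an implied length of 4723 bases, had 250 and 267 normalized reads in the controls, 513 and 551 at 2 h, and 1289 and 1547 at 12 h. Its second step of 2.66-fold was only slightly wider than its first of 2.06-fold.

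The summed reads of the members rose with the heat, and a few members carried most of them. The set held 0.134% and 0.145% of the reads of the control libraries, 0.614% and 0.598% at 2 h, and 5.81% and 5.15% at 12 h. Of these, c75811_g1 alone held 0.0380% and 0.0412%, then 0.353% and 0.306%, then 3.94% and 3.33%. Without it the other members held 0.0997% ± 0.00539 in the controls (SD, n = 2), 0.276% ± 0.0221 at 2 h and 1.84% ± 0.0370 at 12 h. The summed normalized reads at 12 h came to 66.4% from the highest member, 82.3% from the highest 5 and 91.7% from the highest 20. Long unigenes yield more reads per transcript, so these are shares of reads and not of transcripts. The 21 members with high replicate 2 held little: 0.0605% and 0.165% of the reads at 12 h.

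**Figure D2:**
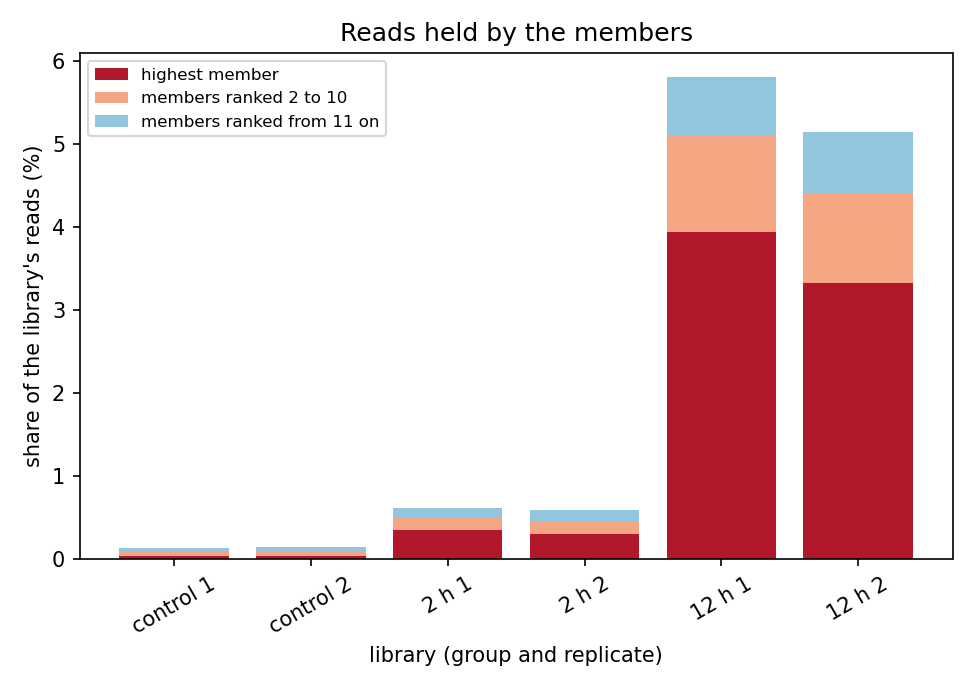
Share of each library's reads, in percent, held by the highest member (red), the members ranked 2 to 10 by 12 h count (orange) and the remaining members (blue). The stacks stand near 0.14% in the controls, near 0.6% at 2 h and between 5.15% and 5.81% at 12 h, with c75811_g1 the widest part at 12 h.

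The first step was mostly modest and the second more varied. The 2 h mean was a median of 2.56 times the control mean, with quartiles of 2.21 and 3.51 and a range from 2.01 to 22.9. The 12 h mean was a median of 3.35 times the 2 h mean, with quartiles of 2.5 and 5.54 and a range from 2.01 to 118. The net ratio had a median of 10.6, with quartiles of 6.67 and 17.3. The lower ends are set by the rule. Without the 21 members with high replicate 2, the medians were 2.52, 3.87 and 10.8. A first step of at least 4-fold was seen in 27 members and a second step of that size in 60, and 12 members had both; without the 21 these were 20, 60 and 12. The second interval lasted 10 h and the first 2 h: per hour, the median gain on the log2 scale was 0.678 in the first interval and 0.175 in the second. Only 1 member, ranked 15, gained more per hour in the second, and its control and 2 h libraries overlapped. The rule asks at least 2-fold of the 2 h interval and of the 10 h interval alike. It thus sets a higher minimum per hour in the first interval, and nothing is read from the rates. The widest first step, 22.9-fold, belonged to the member ranked 39, which had 4 control reads in all. Among the 121 members with at least 10 control reads, the smallest first step was 2.01-fold, at rank 136, and the smallest second step 2.01-fold, at rank 79.

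By the balance of the steps the members fell into 3 shapes, formed from the same values and given as a description. In 77 members the steps were within 1.5-fold of each other. Their medians were 20.6 normalized reads in the controls, 55.1 at 2 h and 190 at 12 h. In 52 members the second step was the larger by over 1.5-fold, with medians of 10.2, 27.6 and 206. In 14 members the first step was the larger by that margin, with medians of 12.6, 73.5 and 177. The last shape was the least even between replicates: 7 of its 14 members had high replicate 2 at both heat times, against 14 of 77 and 0 of 52 in the other shapes, and none of the 14 reached 1000 normalized reads at 12 h. Without the 21, its 7 members had medians of 13.2, 77.6 and 309, and the 63 with steps within 1.5-fold had 21.3, 62.2 and 202.

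A second step of at least 8-fold marked 19 members, and most of them started from almost nothing. Of these, 13 had fewer than 10 control reads over both libraries, and 7 reached at least 1000 normalized reads at 12 h. The member ranked 12 had 1.98 and 2.87 normalized reads in the controls, 31.8 and 9.28 at 2 h, and 2591 and 1829 at 12 h. The member ranked 18 had 4.95 and 4.31, then 45.8 and 33.65, then 1134 and 1131. In both the groups did not overlap, although the 2 h replicates of rank 12 differed by more than 3 times. The member ranked 15 had 4.95 and 4.31 normalized reads in the controls, 21.6 and 4.64 at 2 h, and 1856 and 1471 at 12 h. Its first step rested on replicate 1 at 2 h, since replicate 2 lay between the controls. Across the 143 members the second step was the larger the lower the control level (Spearman's rho = -0.51), and the first step showed a rho of -0.33; without the 21 these were -0.56 and -0.28. These describe members that share all 6 libraries, and the floor of 80 at 12 h excludes members that start low and rise little. The control mean is also the divisor of the first step, which favours a negative rho there.

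**Figure D3:**
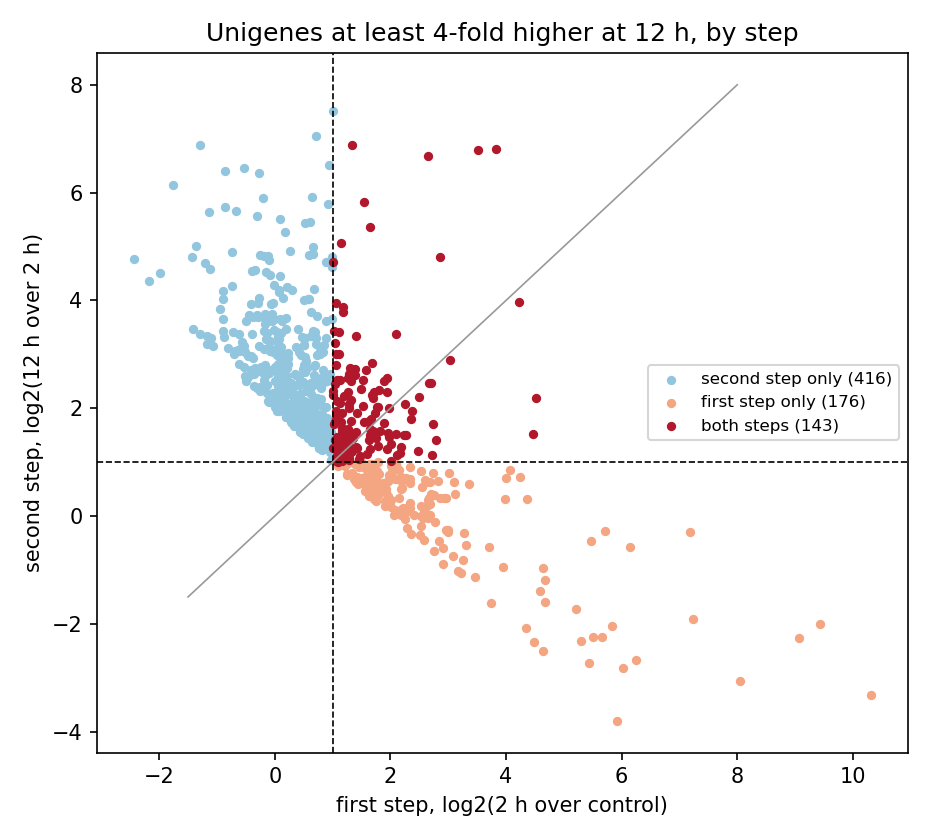
First step (log2 of 2 h over control, horizontal) and second step (log2 of 12 h over 2 h, vertical) of the 735 unigenes with at least 80 normalized reads and a net rise of at least 4-fold at 12 h. Dashed lines mark 2-fold in each step, and the solid line marks equal steps; the 143 members (red) occupy the corner where both steps pass, and 90 of them lie above the line of equal steps.

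For a few members the control level was too low to give a usable ratio. The member ranked 83 had no control read, 3.82 and 0 normalized reads at 2 h, and 221.5 and 107.6 at 12 h. Its groups overlapped at the first step. Against a floor of 3 reads over both controls it was at least 91.1-fold higher at 12 h. Another 7 members had 1 to 3 control reads. The member ranked 10 had 1 control read and 6892 reads at 12 h, a ratio of 4030 with an exact 95% binomial interval from 722 to 159000. The member ranked 13 also had 1 control read and had 6326 at 12 h, 3690 times as many after scaling (interval 663 to 146000). The remaining 5 had ratios of 52.8 to 403, with lower interval bounds from 17.9 to 138 and upper bounds from 257 to 7410. These intervals cover counting error only. At 2 h rank 10 had 35.6 and 4.64 normalized reads and rank 13 had 28.0 and 9.28, and replicates at 2 h thus differed widely. At 12 h they had 2589 and 2163 and 2269 and 2078 normalized reads, well above every earlier library.

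For most members the separate libraries kept the order of the group means. In 129 of 143, both 2 h libraries lay above both controls and both 12 h libraries above both 2 h libraries, an order that 9.92% of all tested unigenes showed. The choice by group means favours this order, so nothing is read from the count. Without the 21 members it was 118 of 122. Of the other 14, 4 overlapped between control and 2 h, 6 between 2 h and 12 h and 4 in both places. Of these 14, 10 belonged to the 21 members with high replicate 2. The edgeR test called 103 members higher at 2 h than in the controls, where 14.3% of all tested unigenes were called higher. It called 135 higher at 12 h than in the controls, against 27.6% of all, and 123 higher at 12 h than at 2 h, against 22.9%. No member was called lower in any of these, and 103 were called higher in all 3. The rule used these contrasts, so these counts are given as description. Scaled to library totals alone, the share of all tested unigenes called higher rose: 13555 higher and 3252 lower for 12 h over control in place of 7132 and 6291, and 12461 and 3013 for 12 h over 2 h in place of 5913 and 5897. Without control replicate 1 the unigenes called higher at 2 h numbered 2099 in place of 3706.

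Replicates differed by at least 2-fold in a larger share of the members than of the other unigenes above the same floor, which were not matched to the members in level at any time. At 12 h the replicates differed by at least 2-fold in 19 members, 13.3%, against 1.68% of the 11733 other unigenes with at least 80 normalized reads. At 2 h the figures were 23 members, 16.1%, against 1.36%, and in the controls 24 members, 16.8%, against 1.09%. The rule used the means of these libraries, and the median control level of the members was 16.1 normalized reads. The parts of that choice and of low counts in these shares were not tested. Without the 21 members with high replicate 2, 3 of 122 members, 2.46%, differed by that much at 12 h, 9, 7.38%, at 2 h and 19, 15.6%, in the controls.

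These 21 members were 14.7% of the set, beside 3.47% of all tested unigenes and 2.22% of the others with at least 80 normalized reads. The rule used the means of these same heated libraries, so a unigene could enter through a high replicate 2. Nothing is therefore read from the difference in share. The opposite pattern, replicate 1 over 1.5 times replicate 2 at both heat times, was seen in 4 members, 2.80%, and in 2.02% of all tested. Replicate 2 of the 21 was a median of 2.63 times replicate 1 at 2 h and 2.57 times at 12 h, but 1.03 times in the controls, where it was the higher in 11 of 21. The control ratios of single members ran from 0.412 to 8.18, and the 21 were picked by their heated libraries alone. Over the 143 members the log2 ratios of replicate 2 to replicate 1 correlated between 2 h and 12 h (r = 0.72), and did not between the controls and 2 h (r = 0.02) or 12 h (r = 0.08). Over all 25828 tested unigenes, on log2 CPM, the correlation between 2 h and 12 h was 0.285. These correlations run across unigenes, which share the same libraries. The rule could admit a member through a high replicate 2 at both times, so nothing is read from the higher value in the members. The labels do not say that equal replicate numbers mark shared plants or days, and the part of any such sharing in these values was not tested.

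The most abundant of the 21 was ranked 9, with 394 and 544 normalized reads in the controls, 517 and 1717 at 2 h, and 1363 and 3509 at 12 h. Its replicate 1 at 2 h lay between the controls, and its replicate 2 at 2 h exceeded replicate 1 at 12 h. The member ranked 102 had the widest gap, with 6.93 and 17.2 normalized reads in the controls, 21.6 and 89.3 at 2 h, and 27.4 and 217 at 12 h. In the fit with no term for replicate number, none of the 21 was among the 103 members called higher at 2 h, and 3 were among those called higher at 12 h than at 2 h. The 21 were picked by a gap between replicates, which lowers such calls, so nothing is read from these counts. When both heated libraries numbered 2 were left out, 109 of the 143 members still met the rule, among them 4 of the 21. When both heated libraries numbered 1 were left out, 116 still did.

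**Figure D4:**
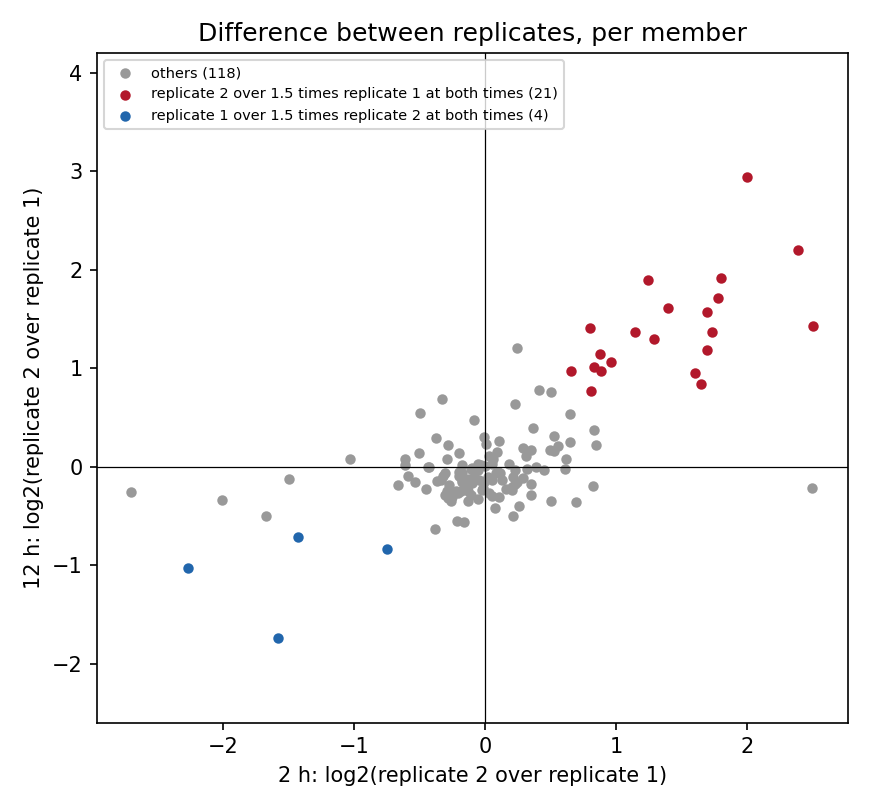
Log2 ratio of replicate 2 to replicate 1 at 2 h (horizontal) and at 12 h (vertical) for each of the 143 members, in normalized reads + 1. The 21 members with replicate 2 over 1.5 times replicate 1 at both times (red) fill the upper right, with ratios from 1.57 to 5.67 at 2 h and from 1.70 to 7.67 at 12 h, while 4 members (blue) lie opposite.

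How far the choice turns on single libraries was seen by applying the rule to 5 libraries at a time and setting the library left out against the limits. This is a description and no independent check, since the left-out value was set against group means that the rule had just selected and all 6 libraries entered the size factors. Without control replicate 1 the rule found 161 unigenes, and for 103 of them the left-out control also lay at or below the 2 h mean divided by 2. Without control replicate 2 these were 160 and 103. Of the 134 found without 2 h replicate 1, 89 had a left-out value that met both steps, and of the 169 found without 2 h replicate 2, 89 did. Of the 191 found without 12 h replicate 1, 108 had a left-out value of at least 2 times the 2 h mean and at least 80, and of the 130 found without 12 h replicate 2, 108 did. The share that met the limits thus ran from 52.7% to 83.1%. In all, 71 of the 143 members were found in each of the 6 reduced choices, and 320 unigenes were found at least once, counting the full choice.

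The set has no sharp border. The members nearest the limit of the first step had 2 h to control ratios of 2.007, 2.008 and 2.014, and the nearest unigenes outside, with the other limits met, had 1.998, 1.990 and 1.989. At the second step the nearest ratios were 2.007, 2.018 and 2.020 inside and 1.995, 1.993 and 1.990 outside. At the floor, the means + 1 were 80.5, 81.5 and 81.5 inside and 79.2, 79.1 and 78.1 outside. The nearest unigene outside the first step had means of 0.718 normalized reads in the controls, 2.43 at 2 h and 624 at 12 h, so a read more or less at 2 h decides on which side it falls. Within 10% of the first limit lay 35 members and 29 unigenes outside.

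Most strongly raised unigenes had rising means in both intervals, but fewer passed 2-fold in each. At 12 h, 735 unigenes had at least 80 normalized reads and a net rise of at least 4-fold. Of these, 416, or 56.6%, passed only the second step, 176, or 23.9%, passed only the first, and the 143 members, 19.5%, passed both. By direction alone, 569 of the 735, or 77.4%, had a 2 h mean above the control mean and a 12 h mean above the 2 h mean. Among all tested unigenes this share was 24.1%. The 569 include the 143 members, and a net rise of 4-fold favours this order, so nothing is read from the difference. The split depends on the limits and on the scaling: steps of 1.5 gave 513 members and library totals 330. With no bound on the net rise, 1042 unigenes with at least 80 normalized reads at 12 h passed the first step but not the second, and 1614 the second but not the first. The members were thus 12.1% of the unigenes of that level that had risen by 2-fold at 2 h, and 8.14% of those that rose by 2-fold between 2 h and 12 h.

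Length and assembly structure were not used by the rule and are given here as description. The length implied by count, FPKM and library total had a median of 1281 bases in the members, with quartiles of 837 and 2005 and a range from 152 to 6151; without the 21 the median was 1305. The median was 1510 in the 11733 other unigenes with at least 80 normalized reads, 1266 in those that passed only the first step and 1456 in those that passed only the second. A length under 500 bases was found for 7 members, 4.90%, and for 4.46% of the others of that level. Counts with decimals were found in no member and in 2.74% of the others of that level. The implied length was also compared between groups. Of the 36 members with at least 20 reads and at least 1 FPKM in every library, 2 had an implied length over 1.25 times longer at 12 h than in the controls and none was shorter by that much, against 3.10% of 11288 others in either direction. The clearer of these, ranked 22, went from 1433 and 1991 bases in the controls to 1246 and 1150 at 2 h and 2192 and 2116 at 12 h. Its normalized reads were 49.5 and 61.8, then 335 and 295, then 788 and 663.

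The assembly grouped unigenes into components, sets of related sequences that can hold gene copies, alleles or fragments. The 143 members lay in 142 components, and 53 members, 37.1%, shared their component with other unigenes, against 37.3% of the others with at least 80 normalized reads. A single component held a pair of members, ranked 21 and 47, and both had high replicate 2. Rank 21 had 196 and 201 normalized reads in the controls, 262 and 621 at 2 h, and 405 and 1510 at 12 h. Rank 47 had 25.8 and 15.8, then 31.8 and 171, then 102 and 475. In both, replicate 1 at 12 h lay below replicate 2 at 2 h.

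Of the other unigenes in the members' components, those tested were more often called higher at 12 h than tested unigenes at large. There were 74 such other unigenes, 70 with a read and 41 in the test. At 12 h, 25 of the 41, 61.0%, were called higher than in the controls and 3 lower (quasi-likelihood test of edgeR, threshold 0.05 after Benjamini-Hochberg adjustment), beside 27.6% called higher among all. Their median log2 fold change was 1.88, beside 0.12 over all tested. Between 2 h and 12 h, 18 were called higher and 6 lower, 43.9% called higher beside 22.9%, with a median log2 fold change of 0.70 beside 0.05. At 2 h, 11 were called higher and 2 lower, 26.8% called higher beside 14.3%, with a median of 0.83 beside 0.00141. Without control replicate 1, fewer partners were called higher than the controls at 12 h and at 2 h, and so were fewer of all tested unigenes. Reads shared with a member would raise such a count, and their part was not tested. A unigene that met the rule would count as a member, so these 41 exclude such unigenes. The filter on low counts could also admit a partner through its 12 h reads alone. A partner of rank 125, for example, had means of 1.93, 3.01 and 56.9 normalized reads in the controls, at 2 h and at 12 h. The part of the filter in these shares was not tested, so nothing is read from them.

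Component partners did not always follow the member. Beside the member ranked 15, which stood at a mean of 1663 normalized reads at 12 h, a unigene of the same component had means of 4350 normalized reads in the controls, 4990 at 2 h and 2870 at 12 h. Beside rank 5, a partner with means of 1540, 3580 and 974 rose at 2 h and was below its control level at 12 h, while the member went on to 8860. Beside rank 44, a partner rose from 32.8 to 288 and 449, close to the member's own 309 at 12 h. Of the 41 partners, 21 had rising means in both steps, 51.2%, beside 24.1% of all tested unigenes. The filter on low counts bears on this share too, and its part was not tested.

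**Figure D5:**
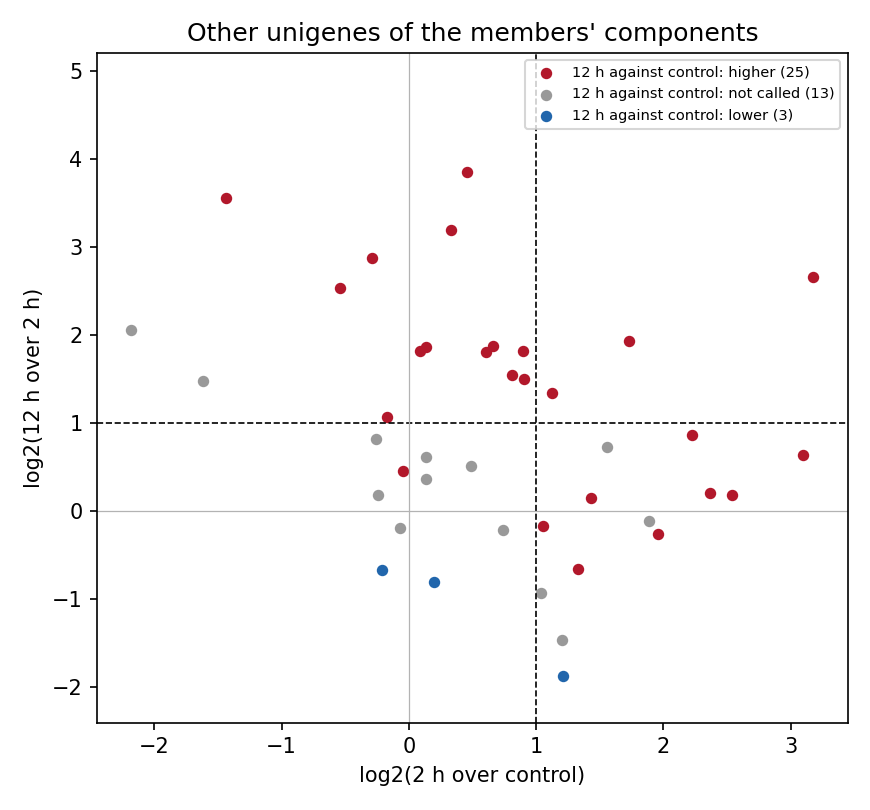
Steps of the 41 tested unigenes that share a component with a member and are not members, as log2 ratios of group means + 1, coloured by the edgeR call at 12 h against control. Of these, 25 were called higher, 3 lower and 13 neither; dashed lines mark 2-fold in each step.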

How the data were processed

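Leaf RNA sequencing gave 6 libraries in 3 groups of 2. The authors deposited estimated counts, reads per unigene without scaling between libraries, and FPKM values, which divide by library total and unigene length. DESeq 1.18.0, HTSeq 0.6.1, TopHat2 2.0.12 and Bowtie2 2.2.3 are listed, without roles, in the submitters' processing notes. The assembler and strand setting were not given in the sources used here. In the workbook the sheet is named for tall fescue, but its column names match the bermudagrass labels.

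Size factors were medians of ratios over the 18038 unigenes with at least 10 reads in every library. For edgeR 4.0.16 (R 4.3.3) the counts, some with decimals where whole counts had been planned for, were rounded, filtered with filterByExpr (minimum count 10, total 15; 25828 unigenes tested, all 143 members among them) and scaled by TMM. A quasi-likelihood model with a mean per group was fitted to all libraries, with Benjamini-Hochberg adjustment over all tested unigenes and a threshold of 0.05; the procedure was tested on simulated data. Standard errors are the size of the log2 fold change over the square root of F. The p-values reflect only how far these libraries differ from each other, which may be technical. Alternatives used DESeq2 1.42.0 and limma 3.58.1. Implied lengths use values of at least 100 reads, except in the comparison between groups, which uses at least 20 reads and at least 1 FPKM. Unigenes that are near-identical copies or share a component may share reads.

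The members, comparison sets and alternatives were chosen with earlier results of these data known. The naming rule prints the IDs of the member highest at 12 h and of the member with the largest net ratio among those with at least 10 control reads. By rank of 12 h mean it takes the first 20, the extremes of each step and the values nearest each limit. Members picked for replicate difference, low control reads, implied length or component, the widest first step of all, and the partners were named after their values were seen.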

Additional observations from a re-analysis of the deposited data

How the results depend on the processing

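The number of members depended on the scaling and on the limits. Library totals alone gave 330, including all 143, and FPKM in the steps gave 307, including 135. Totals moved the median log2 ratio of all tested unigenes from 0.15 to 0.72 for 12 h over control and from 0.08 to 0.62 for 12 h over 2 h, and the net folds of c75811_g1 and c82800_g1 to 91.7 and 191. A floor of 160 left 83, steps of 1.5 and 3 gave 513 and 32, and 61 passed with the lower later replicate against the higher earlier one. The other alternatives, which leave out a library (130 to 191) or use TMM (138), poscounts (147), offsets of 0.5 and 5 (154 and 110) or a floor of 40 (212), stayed within 1.5 times of 143. Without both heated libraries numbered 2 or both numbered 1, alternatives chosen after seeing the data, the rule found 149 and 166.

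Over all tested unigenes, 12 h over control gave 13555 higher and 3252 lower with library totals and 12624 and 3098 with limma on log2(FPKM + 1), in place of 7132 and 6291. For 12 h over 2 h these were 12461 and 3013, and 11602 and 2686, and DESeq2 gave 3669 and 5090, in place of 5913 and 5897; the cause was not tested. For 2 h over control, leaving out a library gave 2099 to 4003 higher. With all 6 libraries kept, 69 to 125, 134 to 142 and 123 to 139 members were called higher at 2 h over control, 12 h over control and 12 h over 2 h. Some fits that left out a library called fewer at 12 h. Beside these, 2709 to 4489, 4898 to 13555 and 3669 to 12461 of all tested unigenes were called higher (25828 tested, or 88871 without the filter). The rule used these contrasts, so the member counts are given as description. The component partners numbered 70 with any read in place of 41. A fit with the replicate block called 4489, 7781 and 6476 unigenes higher, 125, 142 and 139 of them members. Of the 21 members with high replicate 2 it called 15, 20 and 17 higher, in place of 0, 13 and 3. These 21 were picked by a replicate difference that the block takes up, so nothing is read from this change. The deviations of equally numbered libraries correlated at 0.0078 between control and 2 h and at 0.035 between control and 12 h. Between 2 h and 12 h the correlation was 0.285. The labels state no pairing, so the main fit has no term for replicate number. The part of any sharing between equally numbered heated libraries in its 12 h over 2 h calls was not tested. With 2 libraries a group, leaving one out rests on the spread of the other groups.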
